A study of Mus musculus with 4 samples.

Results

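The 10 genes described here encode the core of Polycomb repressive complex 2 (Ezh1, Ezh2, Eed and Suz12), the DNA methyltransferases Dnmt1, Dnmt3a and Dnmt3b, and the DNA dioxygenases Tet1, Tet2 and Tet3. They were found by the Entrez gene ID of each symbol, and all 10 were present among 17621 genes with values. Their levels were compared across 4 RNA-seq libraries of primary neural stem cells from the cortex of newborn (P0) mice, in a study of the nucleoporin Seh1. The D3_iKO and D3_Ctrl cells had been withdrawn from EGF and bFGF and kept in differentiation medium to day 3, and the D0_iKO and D0_Ctrl cells were sampled in growth medium with both factors at day 0. The iKO cells had the genotype cmv-cre-ert,seh1 f/f and the Ctrl cells the genotype Seh1 f/f, so that all 4 groups carried floxed Seh1 alleles and the Cre fusion was present in iKO cells alone. The genotype label names a CMV promoter, which is active in many cell types, as the driver of that fusion. How deletion was induced, which exons were floxed, and whether any control had the Cre fusion without floxed alleles were not given in the sources used here.

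Polycomb repressive complex 2 (PRC2) methylates lysine 27 of histone H3 through Ezh2 or its paralog Ezh1, with Eed and Suz12 as obligate partners, and the mark keeps developmental genes silent. Dnmt3a and Dnmt3b set new methyl groups on cytosine, Dnmt1 copies them to the daughter strand at replication, and Tet enzymes oxidise them as a first step of removal. In the developing cortex, Ezh2 and Dnmt1 are known from dividing progenitors, among other cells, and Dnmt3a and the Tet enzymes are active in postmitotic neurons too.

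Each group held 1 library, with totals between 19611788 and 21040590 expected counts, so no difference can be set against a spread between cultures, and p-values were left out. Levels are counts per 1e6 counts (CPM) after TMM scaling, and fold changes are ratios of CPM with a 95% interval in parentheses that covers counting error only. Higher or lower, for a count of genes, means a log2 ratio of CPM + 1 of at least 1 in size, over the 12976 genes that averaged 1 CPM or more. The targeted gene Seh1l was at 11.0 CPM in D3_iKO and 33.2 CPM in D3_Ctrl cells, and at 19.2 CPM in D0_iKO and 40.3 CPM in D0_Ctrl cells. Its counts cover the whole transcript and may include RNA that lacks the deleted part. All 10 neural stem cell markers were detected, with a summed level between 5399 and 6377 CPM, while markers of microglia, endothelium, and fibroblasts and mural cells summed to at most 8.81, 2.33 and 16.1 CPM in any library. In such bulk samples, fewer cells of a type and less RNA per cell cannot be told apart.

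Across the days, Ezh2, Eed, Suz12 and Dnmt1 went one way and Ezh1 and Tet2 the other. In iKO cells, 3 of the 10 genes were lower at day 3 (Ezh2, Eed and Dnmt1) and 1 was higher (Ezh1), against 11.4% of all genes lower and 11.2% higher. The Ezh1 call was lost with library totals (log2 ratio 0.88), deposited FPKM with 1 FPKM added (0.72) or a pseudocount of 5 CPM (0.78). That of Eed was lost with a pseudocount of 5 CPM (-0.92). In Ctrl cells, 4 were lower (Ezh2, Eed, Suz12 and Dnmt1) and 2 were higher (Ezh1 and Tet2), against 15.1% of all genes lower and 14.6% higher. The median log2 ratio of the 10 genes was -0.37 in iKO and -0.27 in Ctrl cells, and that of all genes was -0.01 in iKO and -0.02 in Ctrl cells. Between the genotypes, no member passed 2-fold on either day. At day 3 the background was 6.27% of genes higher and 4.76% lower in iKO cells, and at day 0 it was 2.67% higher and 0.331% lower. The log2 ratio of iKO to Ctrl was below 0 for 8 of the 10 members on each day. Its median was -0.40 at day 3 and -0.24 at day 0, where the median of all genes was -0.01 at day 3 and -0.06 at day 0. The share of all genes below 0 is not given here, so the count of 8 has no background. With library totals, Dnmt3a at day 0 turned to 0.05.

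**Figure D1:**
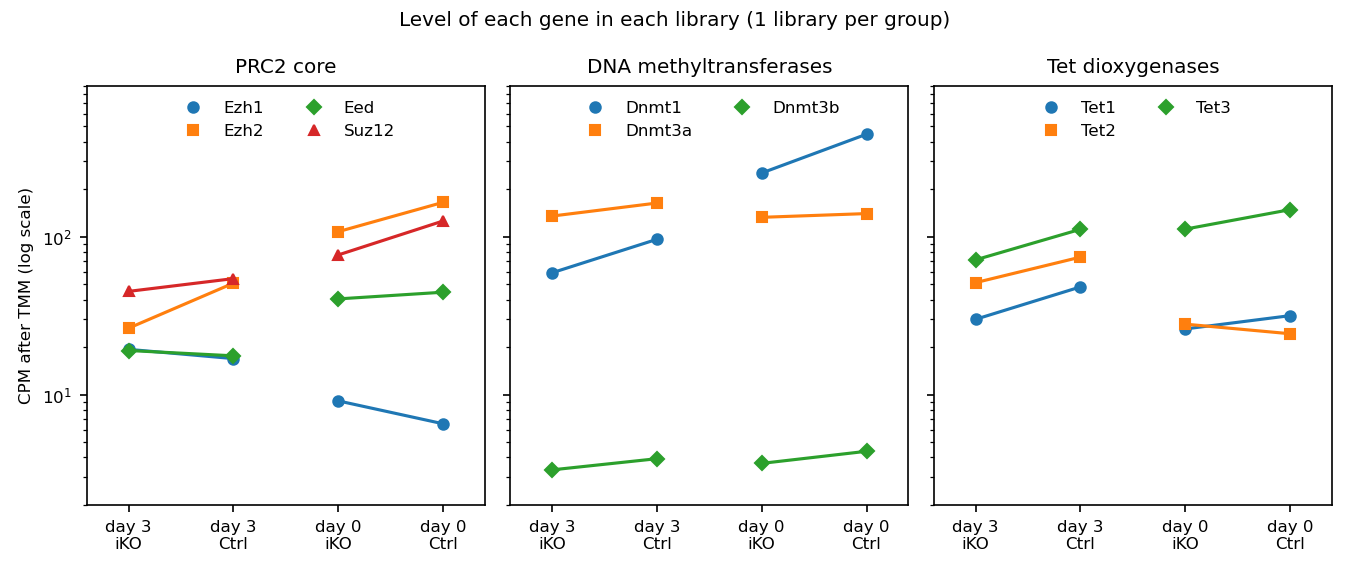
Level of each gene in CPM after TMM scaling (log axis) in the 4 libraries, 1 point per library, with lines that join the genotypes of a day. Dnmt1 and Ezh2 stand far lower on the day 3 side, Ezh1 and Tet2 stand higher there, and Dnmt3a and Dnmt3b lie nearly level.

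Per length, Dnmt1 and Ezh2 led by a wide margin at day 0 and by little or not at all at day 3. FPKM, a level per transcript length, allows genes to be compared. In D3_iKO cells Dnmt3a came first at 13.0 FPKM, and below it Dnmt1 (10.5), Ezh2 (9.88), Suz12 (9.85) and Eed (8.81) each overlapped the next in its counting interval. Tet3 (6.15), Tet2 (5.31), Ezh1 (4.4) and Tet1 (2.1) followed without overlap. In D3_Ctrl cells Ezh2 (20.1) and Dnmt1 (18.4) had overlapping intervals above Dnmt3a (16.8), Suz12 (12.6) and Tet3 (10.1). The overlapping neighbours further down were Eed (8.67) with Tet2 (8.15) and Ezh1 (4.07) with Tet1 (3.69). In D0_iKO cells Dnmt1 (50.3) and Ezh2 (43.9) stood first, and Eed (20.5) and Suz12 (18.4) had overlapping intervals, as had Ezh1 (2.28) and Tet1 (1.97). In D0_Ctrl cells the order was Dnmt1 (81.2), Ezh2 (61.7), Suz12 (27.6), Eed (20.8), Dnmt3a (14.1) and Tet3 (12.9). Tet2 (2.52) and Tet1 (2.16) overlapped there, as did Ezh1 (1.49) and Dnmt3b (1.05). Dnmt3b was last in all 4 libraries, at 0.75 FPKM in D3_iKO, 0.99 in D3_Ctrl, 0.95 in D0_iKO and 1.05 in D0_Ctrl cells.

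Promoter windows of RefSeq (GRCm38.p6, 250 bases before to 50 bases after each annotated start) were found for all 10 genes, 14 windows in all. They are shown for those genes lower at day 3 in Ctrl cells that held a word of the E2F type, the binding motif of the E2F factors that drive S phase genes. The words searched on both strands were TTTCCCGC, TTTGGCGC, TTTCGCGC and TTTGCCGC. They occurred in 3 of the 14 windows, against 742 of 32817 RefSeq windows (2.26%). Each word contains a CG, and the matching windows hold 31 (Ezh2), 41 (Suz12) and 33 (Dnmt1) CG pairs, against a median of 7 over all windows. Of the 3467 windows with at least 31 such pairs, 169 (4.87%) held an E2F word. Capitals mark the matches in the windows of Ezh2, Suz12 and 1 of the 3 starts of Dnmt1. That Dnmt1 window lies near the start of NM_001199433.1, which took between 0.344% and 7.53% of Dnmt1 counts. The window at the start of NM_001199431.1 and NM_010066.4 held no E2F word. No start was found here for XM_011242393.2, which took between 1.52% and 61.9% of Dnmt1 counts, so its window is not known.

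Ezh2 (chr6:47594981-47595280, minus strand): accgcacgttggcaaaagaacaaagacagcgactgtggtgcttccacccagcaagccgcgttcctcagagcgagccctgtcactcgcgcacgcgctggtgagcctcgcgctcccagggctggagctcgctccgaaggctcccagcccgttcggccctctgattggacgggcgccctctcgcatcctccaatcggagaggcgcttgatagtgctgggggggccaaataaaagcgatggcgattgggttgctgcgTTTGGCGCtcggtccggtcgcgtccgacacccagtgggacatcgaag
Suz12 (chr11:79992856-79993155, plus strand): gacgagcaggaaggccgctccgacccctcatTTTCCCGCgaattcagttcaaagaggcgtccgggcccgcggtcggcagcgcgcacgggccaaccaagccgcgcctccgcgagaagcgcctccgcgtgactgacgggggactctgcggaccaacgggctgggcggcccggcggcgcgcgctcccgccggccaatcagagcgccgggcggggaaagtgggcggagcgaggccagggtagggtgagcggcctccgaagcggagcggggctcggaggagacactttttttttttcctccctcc
Dnmt1 (chr9:20952574-20952873, minus strand): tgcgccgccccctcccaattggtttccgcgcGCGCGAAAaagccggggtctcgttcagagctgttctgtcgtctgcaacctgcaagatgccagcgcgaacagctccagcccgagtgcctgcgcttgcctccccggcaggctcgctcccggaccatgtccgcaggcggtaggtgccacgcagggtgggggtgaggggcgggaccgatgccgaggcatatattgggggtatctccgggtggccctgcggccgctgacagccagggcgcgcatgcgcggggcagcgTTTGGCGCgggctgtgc

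The Ezh2 word begins 3 bases after the annotated start, the Suz12 word 219 bases before it, and the Dnmt1 window holds a reverse-strand word 219 bases before and a forward word 33 bases after its start. For comparison, 9 of 20 DNA replication genes and 1 of 16 mitosis genes with a window held such a word. The shorter CCAAT box was found in 6 of the 14 windows, against 37.4% of all windows, and the CHR element TTTGAA in 4 of 14, against 17.9%. The windows of Ezh1, Dnmt3a, Tet1 and Tet2 held none of the 3 motifs. The Tet1 window, with its start at 62887324, does not cover the starts found for NM_001253857.1 (62899118) and NM_027384.1 (62880014). These took between 21.7% and 88.0% and between 0% and 75.5% of Tet1 counts, so their windows are not known. A match is a description of the letters, not a site or a cause.

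Ezh2 (Entrez 14056, chromosome 6, 47530274 to 47595270), the main H3K27 methyltransferase of dividing cells, was at 26.3 CPM in D3_iKO, 50.8 in D3_Ctrl, 108 in D0_iKO and 165 in D0_Ctrl cells. It was lower in the day 3 library of either genotype and lower in the iKO library of either day. The day 3 level was 4.08-fold lower than the day 0 level in iKO cells (3.71 to 4.51) and 3.25-fold lower in Ctrl cells (3.03 to 3.49). Compared with Ctrl cells, iKO cells had 1.93-fold less at day 3 (1.73 to 2.15) and 1.53-fold less at day 0 (1.45 to 1.62). Its log2 ratio at day 3, -0.92, was the member value nearest to the 2-fold threshold among the genotype comparisons. Ezh2 is also the 1 member in the authors' deposited table of differential genes at day 3, with a log2 ratio of -1.03 and an FDR of 3.16e-40. That table lists 1774 genes and sets 1 library against another, so that FDR carries no spread between cultures. The authors' deposited table for day 0 lists 103 genes and 0 members. The smallest log2 ratio in size there is 1.00, and the targeted gene Seh1l is not listed either.

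Ezh1 (Entrez ID 14055, chromosome 11, 101191115 to 101226463), the paralog that is known from resting and differentiated cells, went the other way. It was at 19.3 CPM in D3_iKO, 16.9 in D3_Ctrl, 9.13 in D0_iKO and 6.54 in D0_Ctrl cells. The day 3 libraries were both above the day 0 libraries, by 2.12-fold in iKO cells (1.78 to 2.53) and 2.59-fold in Ctrl cells (2.11 to 3.18). With iKO set against Ctrl, the fold was 1.14 at day 3, with an interval that included 1 (0.984 to 1.33), and 1.40 at day 0 (1.12 to 1.75).

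The opposite course of the paralogs changed the make-up of the enzyme pair. Ezh2 made up 69.2% of the summed Ezh1 and Ezh2 FPKM in D3_iKO cells, 83.2% in D3_Ctrl, 95.1% in D0_iKO and 97.6% in D0_Ctrl cells. As a ratio of FPKM, Ezh2 stood at 2.25 times Ezh1 in D3_iKO, 4.94 times in D3_Ctrl, 19.3 times in D0_iKO and 41.4 times in D0_Ctrl cells. Ezh2 thus remained the more abundant of the pair in each library, and its share was lower in iKO cells on both days. The pair together came to 14.3 FPKM in D3_iKO, 24.2 in D3_Ctrl, 46.2 in D0_iKO and 63.2 in D0_Ctrl cells.

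**Figure D2:**
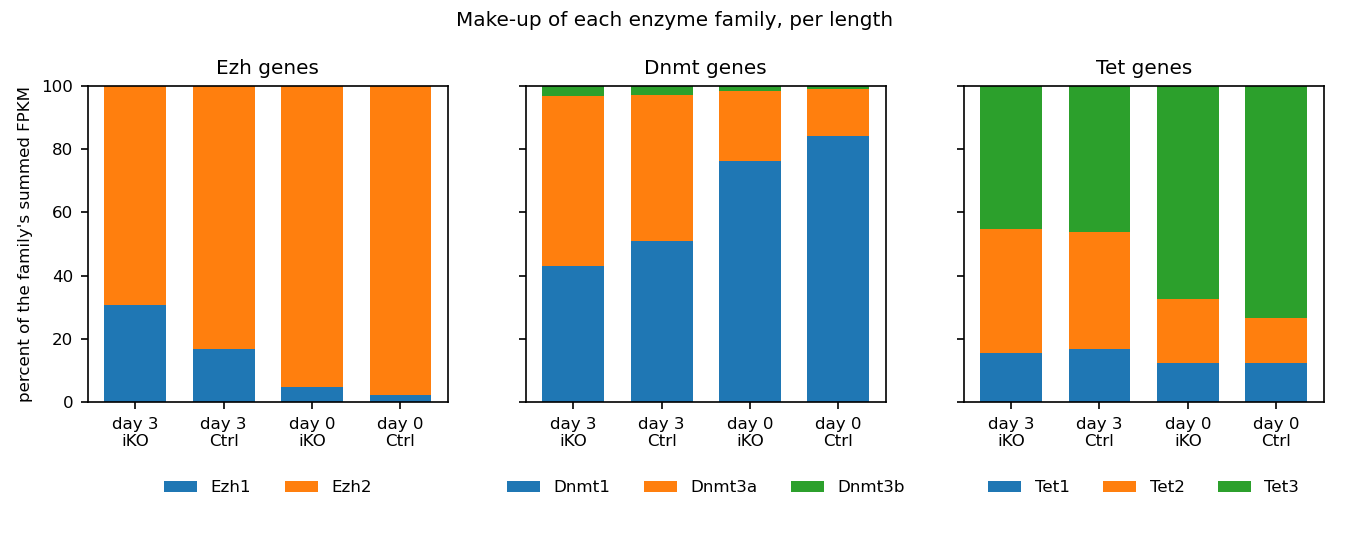
Share of each gene in the summed FPKM of its family, in percent, 1 stacked bar per library. The Ezh1 part is widest in D3_iKO cells (30.8%), the Dnmt3a part there exceeds the Dnmt1 part, and the Tet2 part is wider at day 3 in both genotypes.

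The obligate partners did not move alike. Eed (Entrez ID 13626, chromosome 7, 89954654 to 89980976), the subunit that reads the H3K27 mark, was at 19.0 CPM in D3_iKO and 17.6 CPM in D3_Ctrl cells, and at 40.4 CPM in D0_iKO and 44.5 CPM in D0_Ctrl cells. Its day 3 level was 2.12-fold lower in iKO cells (1.87 to 2.41) and 2.53-fold lower in Ctrl cells (2.23 to 2.87), and the genotypes lay close together on each day. The iKO to Ctrl fold was 1.08 at day 3 (0.930 to 1.26), and at day 0 Eed was 1.10-fold lower in iKO cells (1.00 to 1.21). Suz12 (Entrez ID 52615, chromosome 11, 79993106 to 80034123), which holds the complex together, was at 45.1 CPM in D3_iKO, 54.3 in D3_Ctrl, 76.6 in D0_iKO and 126 in D0_Ctrl cells. Here D0_Ctrl cells stood well above the other libraries. The iKO level was 1.20-fold lower at day 3 (1.10 to 1.32) and 1.64-fold lower at day 0 (1.54 to 1.75). Between the days, Suz12 was 1.70-fold lower at day 3 in iKO cells (1.56 to 1.85), short of 2-fold, and 2.32-fold lower in Ctrl cells (2.16 to 2.49).

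Other PRC2 subunits, from a list of 10 accessory genes of which 9 reached 1 CPM, passed 2-fold between the genotypes at day 3 for 3 genes and at day 0 for none. At day 3, 1 was higher and 2 were lower in iKO cells (median log2 ratio -0.28). At day 0 the log2 ratio of iKO to Ctrl was below 0 for all 9, again with a median of -0.28. The median of all genes was -0.06 there, and the share of all genes below 0 is not given here. Jarid2, which helps to recruit PRC2 and is needed in development, was at 48.4 CPM in D3_iKO, 106 in D3_Ctrl, 44.0 in D0_iKO and 45.4 in D0_Ctrl cells. Only D3_Ctrl cells stood apart for this gene, 2.34-fold above D0_Ctrl (2.17 to 2.53), and D3_iKO cells were 2.19-fold lower than D3_Ctrl cells (2.03 to 2.37). Phf19, a Polycomb-like subunit that binds PRC2 to its targets, had 31.9 CPM in D3_iKO and 14.0 CPM in D3_Ctrl cells, against 35.4 CPM in D0_iKO and 51.1 CPM in D0_Ctrl cells. It was 2.27-fold higher in iKO than in Ctrl cells at day 3 (1.97 to 2.63), and the D3_Ctrl library was the low one. Epop, an elongin-binding subunit, was 3.04-fold lower in iKO cells at day 3 (2.21 to 4.24), at 2.70 CPM in D3_iKO against 8.21 CPM in D3_Ctrl cells. The histone chaperone Rbbp7 was 2.01-fold lower at day 3 in iKO cells (1.91 to 2.12) and 3.54-fold lower in Ctrl cells (3.35 to 3.73). Across the days this list had 2 lower and 0 higher in iKO cells, and 2 lower and 1 higher in Ctrl cells.

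Polycomb repressive complex 1, which binds the H3K27 mark and ubiquitinates histone H2A, was measured through 20 genes, all above 1 CPM. At day 3, 17 had a log2 ratio of iKO to Ctrl below 0 (median -0.27) and 1 was at least 2-fold lower. At day 0, 19 were below 0 and none passed 2-fold (median -0.28). The share of all genes below 0 is not given here. The median of all genes at day 0 was -0.06, and 0.06 with library totals. The gene past 2-fold, Pcgf2 (Mel18), was at 13.8 CPM in D3_iKO, 42.7 in D3_Ctrl, 11.7 in D0_iKO and 14.1 in D0_Ctrl cells, 3.09-fold lower in iKO cells at day 3 (2.69 to 3.56). As with Jarid2, the D3_Ctrl library alone was high. Across the days, 1 of the 20 was higher in iKO cells (Phc3) and 2 were higher in Ctrl cells (Pcgf2 and Phc3), and none was lower. The H3K27 demethylases Kdm6b and Kdm6a did not pass 2-fold in any comparison. Kdm6b was at 112 CPM in D3_iKO, 173 in D3_Ctrl, 104 in D0_iKO and 99.0 in D0_Ctrl cells, 1.55-fold lower in iKO cells at day 3 (1.47 to 1.63).

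Among genes that PRC2 is known to silence, Hox genes stayed near 0 and the CDK inhibitor genes differed. Of 29 listed Ink4 and Hox genes 16 were analysed here, and 11 of the 16, all Hox genes, had at most 3 counts in every library. Only Cdkn1c, Cdkn2a and Cdkn2b reached 1 CPM. Cdkn2a, the Ink4a and Arf gene and a classical PRC2 target, was at 14.6 FPKM in D3_iKO, 6 FPKM in D3_Ctrl, 11.7 FPKM in D0_iKO and 14.3 FPKM in D0_Ctrl cells. D3_Ctrl cells were the low library, and the CPM of iKO cells was 2.51-fold higher at day 3 (1.99 to 3.18) and 1.34-fold lower at day 0 (1.12 to 1.61). Cdkn2b, its neighbour, was at 28.1 CPM in D3_iKO and 13.8 CPM in D3_Ctrl cells, with a ratio of 2.04 (1.76 to 2.36) that fell short of 2-fold on the log2(CPM + 1) scale (0.97). It was at 25.4 CPM in D0_iKO and 15.4 CPM in D0_Ctrl cells, so the iKO library was the higher one on both days. Cdkn1c, the gene of p57, was at 5.72 CPM in D3_iKO, 49.2 in D3_Ctrl, 5.87 in D0_iKO and 8.95 in D0_Ctrl cells, 8.60-fold lower in iKO cells at day 3 (7.05 to 10.6).

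Dnmt1 (Entrez ID 13433, chromosome 9, 20907206 to 20959888), the maintenance methyltransferase, was at 59.1 CPM in D3_iKO, 96.3 in D3_Ctrl, 253 in D0_iKO and 446 in D0_Ctrl cells. As for Ezh2, the day 3 libraries were low and the iKO library was the lower one on each day. It was 4.28-fold lower at day 3 in iKO cells (4.02 to 4.57) and 4.63-fold lower in Ctrl cells (4.41 to 4.87). The iKO level was below the Ctrl level by 1.63-fold at day 3 (1.51 to 1.75) and by 1.76-fold at day 0 (1.70 to 1.82). Within the family, Dnmt1 made up 43.2% of the summed FPKM in D3_iKO, 50.9% in D3_Ctrl, 76.4% in D0_iKO and 84.3% in D0_Ctrl cells. The Dnmt3a share was 53.7% in D3_iKO, 46.4% in D3_Ctrl, 22.2% in D0_iKO and 14.6% in D0_Ctrl cells. With counts divided by the longest transcript instead, Dnmt3a also led in D3_Ctrl cells, at 49.4% against 48.0% for Dnmt1.

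Of 8 measured cofactors of DNA methylation, 4 were lower at day 3 in either genotype (Uhrf1, Hells, Cdca7 and Cdca7l) and none was higher. Uhrf1, which brings Dnmt1 to hemimethylated DNA, was at 14.8 CPM in D3_iKO, 15.4 in D3_Ctrl, 209.9 in D0_iKO and 388 in D0_Ctrl cells. It was 14.1-fold lower at day 3 in iKO cells (12.5 to 16.01) and 25.2-fold lower in Ctrl cells (22.5 to 28.3). At day 3 the genotypes were close for Uhrf1, with iKO cells 1.04-fold lower (0.878 to 1.22), where Dnmt1 was 1.63-fold lower. Hells, a chromatin remodeller needed for DNA methylation, and its partner Cdca7 were 8.06-fold (6.65 to 9.84) and 5.06-fold (4.39 to 5.85) lower at day 3 in iKO cells. In Ctrl cells, Hells was 15.5-fold (12.8 to 19.0) and Cdca7 8.72-fold lower (7.65 to 9.97). The other 4 cofactors (Uhrf2, Usp7, Zbtb24 and Dmap1) did not pass 2-fold, and Zbtb24 was at 17.0 CPM in D3_iKO, 19.1 in D3_Ctrl, 13.1 in D0_iKO and 12.6 in D0_Ctrl cells. The list's median log2 ratio was -1.30 in iKO and -1.73 in Ctrl cells, and between the genotypes none passed 2-fold on either day. Of 7 methyl-CpG readers, Mbd3 alone passed 2-fold, 2.16-fold lower at day 3 in Ctrl cells (2.05 to 2.26).

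Dnmt3a (Entrez ID 13435, chromosome 12, 3801559 to 3914443), a de novo methyltransferase, was nearly level as a gene, at 135 CPM in D3_iKO, 163 in D3_Ctrl, 133 in D0_iKO and 140.1 in D0_Ctrl cells. D3_Ctrl cells were highest, 1.17-fold above D0_Ctrl (1.11 to 1.23), and D3_iKO cells were 1.21-fold below D3_Ctrl cells (1.15 to 1.27). The ratio of D3_iKO to D0_iKO was 1.02 (0.965 to 1.07), and at day 0 iKO cells were 1.06-fold lower (1.00 to 1.11). The direction of these last ratios turned with library totals or deposited FPKM.

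Its transcripts, by contrast, changed their shares. NM_153743.4, the short Dnmt3a2 form that is read from a start inside the gene and known from embryonic stem cells and germ cells, took 4.00% of Dnmt3a counts in D3_iKO, 6.61% in D3_Ctrl, 46.2% in D0_iKO and 43.7% in D0_Ctrl cells. It was a major form at day 0 and a minor one at day 3 in both genotypes. In CPM it was 11.3-fold lower at day 3 in iKO cells (9.27 to 14.0) and 5.67-fold lower in Ctrl cells (4.90 to 6.58). Between the genotypes it was 1.996-fold lower in iKO cells at day 3 (1.57 to 2.55), and the ratio was 1.00 at day 0 (0.927 to 1.08). NM_007872.4, the long Dnmt3a1 form, took 55.8% in D3_iKO, 55.8% in D3_Ctrl, 30.4% in D0_iKO and 40.2% in D0_Ctrl cells, and was 1.87-fold higher at day 3 in iKO cells (1.72 to 2.03) and 1.62-fold higher in Ctrl cells (1.51 to 1.75). The RefSeq window at the inner start, 3891744, which is also the GENCODE start of NM_153743.4, is shown because the form that begins there was 11.3-fold and 5.67-fold lower at day 3. It held no E2F word, so it has no capitals.

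Dnmt3a inner start (chr12:3891494-3891793, plus strand): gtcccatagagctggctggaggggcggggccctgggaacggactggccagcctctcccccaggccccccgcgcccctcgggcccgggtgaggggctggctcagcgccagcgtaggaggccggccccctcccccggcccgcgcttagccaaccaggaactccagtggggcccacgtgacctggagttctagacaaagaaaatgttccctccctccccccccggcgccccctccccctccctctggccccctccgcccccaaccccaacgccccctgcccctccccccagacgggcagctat

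**Figure D3:**
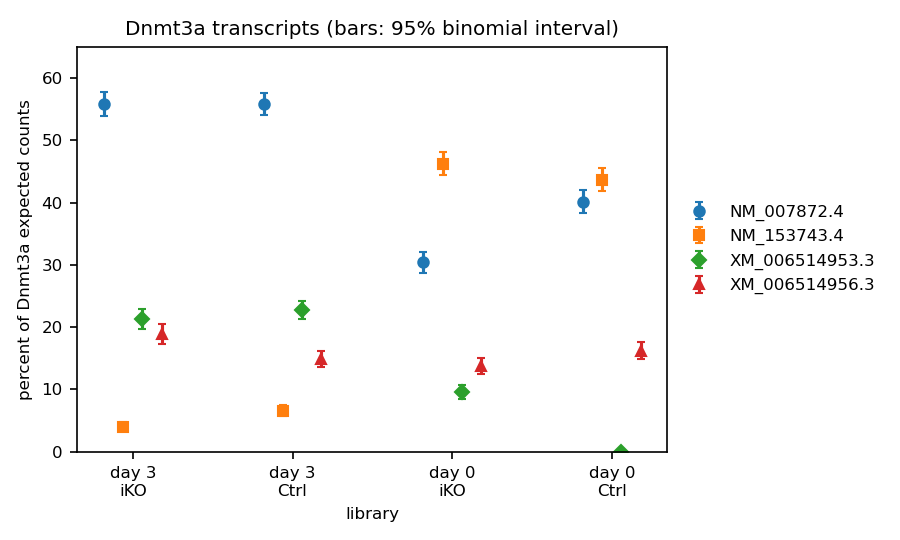
Share of 4 RefSeq transcripts in the expected counts of Dnmt3a, in percent, per library, with exact 95% binomial intervals of counting error. NM_153743.4 is below 7% in both day 3 libraries and above 40% in both day 0 libraries, and NM_007872.4 is higher at day 3.

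Shares of transcripts are estimates that divide reads between overlapping models, and the intervals do not cover that step. Among the longer Dnmt3a models, XM_006514953.3 took 21.3% in D3_iKO, 22.7% in D3_Ctrl and 9.51% in D0_iKO cells and had 0 counts in D0_Ctrl cells (exact interval up to 0.129%), so the division between it and NM_007872.4 is uncertain. The 10 members had 46 transcripts, and Ezh1 alone had 1. For Tet2, NM_001040400.2 took 83.7% of counts in D3_iKO, 78.6% in D3_Ctrl and 99.5% in D0_iKO cells, while another model took nearly the whole count in D0_Ctrl cells. No other transcript shift is therefore reported. RefSeq genes of long noncoding RNA overlap Ezh2, Dnmt3a, Tet1 and Tet3, and library strand was not stated in the labels, so their reads cannot be told apart.

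Dnmt3b (Entrez ID 13436, chromosome 2, 153649411 to 153687730), the second de novo enzyme, which is known from early embryos, was low throughout, at 3.34 CPM in D3_iKO, 3.93 in D3_Ctrl, 3.67 in D0_iKO and 4.38 in D0_Ctrl cells. These levels rest on 63 to 89 counts per library. No difference was detectable at this depth: the iKO level was 1.18-fold lower at day 3 (0.834 to 1.67) and 1.19-fold lower at day 0 (0.872 to 1.63), and the intervals of the day comparisons included 1 as well.

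All 3 Tet genes had less RNA in iKO than in Ctrl cells at day 3, with intervals that did not include 1, and none passed 2-fold. Tet1 (Entrez ID 52463, chromosome 10, 62804570 to 62887469) was at 30.0 CPM in D3_iKO, 48.1 in D3_Ctrl, 26.1 in D0_iKO and 31.6 in D0_Ctrl cells. Its D3_Ctrl library was the high one, and the day 3 level was 1.15-fold higher in iKO cells (1.02 to 1.30) and 1.52-fold higher in Ctrl cells (1.38 to 1.68). Tet2 (Entrez ID 214133, chromosome 3, 133463677 to 133545136), the member without a CXXC domain of its own, was at 51.2 CPM in D3_iKO, 74.3 in D3_Ctrl, 27.9 in D0_iKO and 24.3 in D0_Ctrl cells. Both day 3 libraries were above both day 0 libraries, 1.83-fold in iKO cells (1.65 to 2.03), short of the threshold, and 3.06-fold in Ctrl cells (2.76 to 3.39). Tet3 (Entrez ID 194388, chromosome 6, 83362373 to 83457208) was at 71.4 CPM in D3_iKO, 111 in D3_Ctrl, 112 in D0_iKO and 148 in D0_Ctrl cells. It was the Tet gene with lower levels at day 3, by 1.56-fold in iKO cells (1.46 to 1.67) and 1.33-fold in Ctrl cells (1.26 to 1.41).

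Compared with Ctrl cells at day 3, iKO cells had 1.60-fold less Tet1 (1.44 to 1.78), 1.45-fold less Tet2 (1.34 to 1.57) and 1.56-fold less Tet3 (1.46 to 1.67). At day 0 the folds were 1.21 lower for Tet1 (1.08 to 1.36), 1.15 higher for Tet2 (1.02 to 1.30) and 1.33 lower for Tet3 (1.26 to 1.40). Within the family, Tet3 made up 45.4% of the summed FPKM in D3_iKO, 46.1% in D3_Ctrl, 67.3% in D0_iKO and 73.4% in D0_Ctrl cells. Tet2 held 39.2% in D3_iKO, 37.1% in D3_Ctrl, 20.2% in D0_iKO and 14.3% in D0_Ctrl cells, and Tet1 between 12.3% and 16.8%. The family's make-up thus differed between the days more than between the genotypes.

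**Figure D4:**
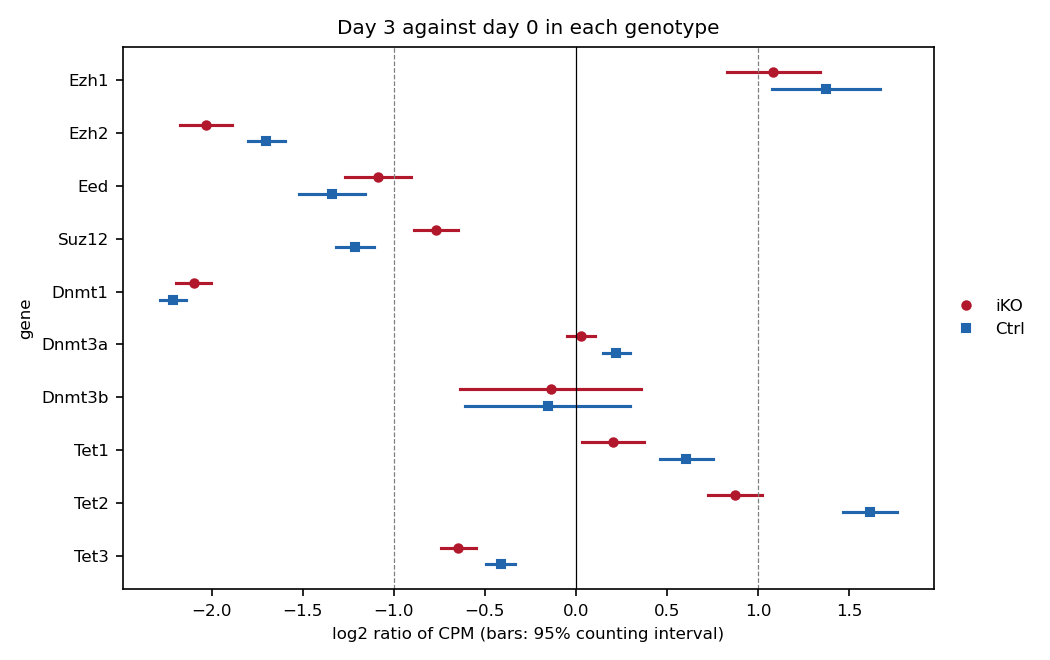
Log2 ratio of CPM, day 3 over day 0, for the 10 genes in iKO cells (circles) and Ctrl cells (squares), without the added 1 CPM, with 95% counting intervals. Dashed lines mark 2-fold, with Dnmt1 and Ezh2 far to the left and Ezh1 and Tet2 to the right.

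**Figure D5:**
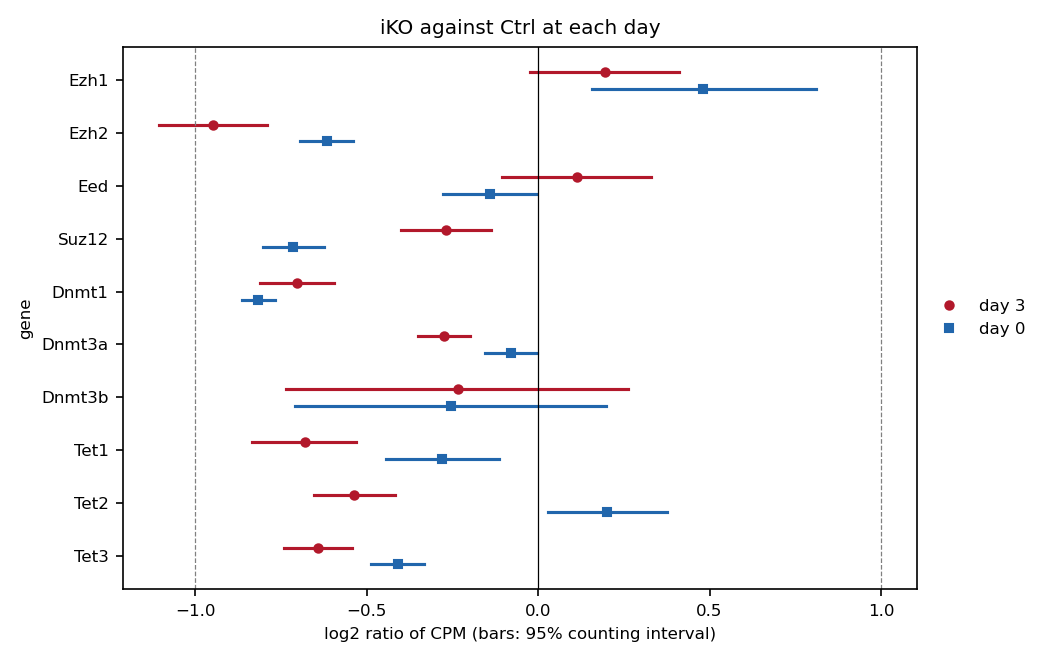
Log2 ratio of CPM, iKO over Ctrl, for the 10 genes at day 3 (circles) and day 0 (squares), without the added 1 CPM, with 95% counting intervals. Most points lie left of 0 and inside the dashed 2-fold lines, and the days differ in sign for Tet2 and Eed.

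The genotype ratios were then compared between the days, as the log2 ratio of iKO to Ctrl at day 3 minus that at day 0. No member reached a difference of 1 in either direction, against 3.71% of all genes above and 5.5% below. The difference was -0.72 for Tet2, -0.39 for Tet1, -0.31 for Ezh2, -0.23 for Tet3 and -0.19 for Dnmt3a, all with counting intervals, taken without the pseudocount, that did not include 0. Suz12 lay on the other side at 0.44, with a ratio nearer to 1 at day 3 than at day 0. Eed had a difference of 0.24, Ezh1 of -0.24 and Dnmt3b of 0.02. For Dnmt1 the difference was 0.12, with an interval that included 0. With library totals, the differences were -0.52 for Ezh2, 0.24 for Suz12, 0.04 for Eed, -0.43 for Ezh1, -0.44 for Tet3, -0.40 for Dnmt3a and -0.60 for Tet1, those of Dnmt1 (-0.09) and Dnmt3b (-0.15) turned sign, and the median of all genes was -0.13. The median over the 10 members was -0.21, beside 0.06 over all genes. With 1 library per group these differences were not tested.

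Cell cycle genes were lower at day 3, as Ezh2 and Dnmt1 were, and none passed 2-fold between the genotypes at that day. All 25 DNA replication genes and all 20 mitosis genes were lower at day 3 in both genotypes, with medians of -2.44 and -3.72 in iKO cells and -3.19 and -4.09 in Ctrl cells. The summed replication list was at 464 CPM in D3_iKO, 460.2 in D3_Ctrl, 2745 in D0_iKO and 4632 in D0_Ctrl cells. Beside it, Ezh2 and Dnmt1 were lower in iKO cells on both days, while the replication list had a median iKO to Ctrl log2 ratio of -0.00 at day 3 and -0.77 at day 0. For the mitosis list it was -0.17 at day 3, with 14 of 20 genes below 0, and -0.74 at day 0, with all 20 below 0. Of 11 RB and E2F genes, 5 were lower and 1 higher at day 3 in each genotype. E2f2, an activating E2F, was 2.04-fold lower in iKO cells at day 0 (1.83 to 2.27), and Rbl2 (p130), the pocket protein of resting cells, was 2.46-fold higher at day 3 in iKO cells (2.28 to 2.66) and 2.05-fold in Ctrl cells (1.89 to 2.22).

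Cell type markers also differed between the genotypes, on both days. The 6 neuron markers summed to 912 CPM in D3_iKO, 1702 in D3_Ctrl, 844 in D0_iKO and 913 in D0_Ctrl cells. Most of each sum was Map2, at 871 CPM in D3_iKO, 1459 in D3_Ctrl, 791 in D0_iKO and 879 in D0_Ctrl cells. At day 3, 4 of the 6 were lower in iKO cells (median -1.39), and 1, Syt1, had a log2 ratio above 0. At day 0 none was lower, and 5 of the 6 had a log2 ratio above 0 (median 0.44). The 8 oligodendrocyte lineage markers summed to 3441 CPM in D3_iKO, 4719 in D3_Ctrl, 4113 in D0_iKO and 4647 in D0_Ctrl cells, and 6 of the 8 were lower in iKO cells at day 3 (median -1.82) and 4 of the 8 at day 0 (median -0.72). The 6 astrocyte markers summed to 3645 CPM in D3_iKO, 2803 in D3_Ctrl, 758 in D0_iKO and 469 in D0_Ctrl cells. None of them passed 2-fold between the genotypes at day 3 (median 0.55), where Aldh1l1 was 1.41-fold lower in iKO cells, and at day 0 all 6 had a ratio above 0 and 2 were higher in iKO cells (median 0.96). None of these markers was at 0 in all libraries. The Tet genes, Jarid2, Pcgf2 and Cdkn1c had less RNA in D3_iKO than in D3_Ctrl cells. For Tet1, Tet2, Jarid2, Pcgf2 and Cdkn1c, D3_Ctrl was the high library of all 4. The part of cell make-up or of cell cycle state in the members' levels was not tested.

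The genes whose profile over the 4 libraries lay nearest to a member were sought for the gene of each family with the highest mean CPM, as the largest difference in centred log2(CPM + 1) in any library, over the 10135 genes that averaged 10 CPM or more. For Ezh2 these were Slc35g1 (0.06), the deoxycytidine kinase gene Dck (0.06) and Megf6 (0.10). For Dnmt1 they were Suv39h2 (0.03), which encodes an H3K9 methyltransferase, the tubulin gene Tubb5 (0.07) and the nucleolar gene Nop56 (0.09). For Tet3 they were Pdzrn4 (0.03), Fubp1 (0.04) and Raph1 (0.04). Dnmt1 ranked 49 in the order of likeness to Ezh2, and Ezh2 ranked 37 in that to Dnmt1, with a largest difference of 0.27. These are descriptions over 4 libraries.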

How the data were processed

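Libraries of total RNA were prepared with a kit from BGI, per the labels' protocols, and groups were taken from the sample titles. The authors deposited, per library, an expected count and an expression value for each of 55122 RefSeq transcripts. The submitters' processing notes name mm10 and the tools HISAT, Bowtie2 and StringTie. The counting tool, filters and annotation release were not given in the sources used here. Their deposited expression value, with no unit in its header, was read as FPKM, since FPKM per count differed between libraries by a nearly constant factor over transcripts. The authors' deposited tables of differential genes hold a log2 ratio and an FDR, per the file headers, without a stated test.

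Expected counts were summed per gene and rounded, and TMM factors came from edgeR 4.0.16 (R 4.3.3): 0.962 for D3_iKO, 1.02 for D3_Ctrl, 1.06 for D0_iKO and 0.966 for D0_Ctrl. The gene sums of 9 of the 10 members were whole within 0.05, and that of Tet1 was not. The pseudocount was 1 CPM, and a minimum mean of 1 CPM left out 4645 genes. Ratios have exact conditional (Clopper-Pearson) 95% intervals of the rounded counts from scipy 1.17.1. FPKM intervals are exact Poisson intervals of the count. Reads are not independent molecules, so all intervals leave out every error but that of counting. A floor of 3 counts applied to each library. The ratio code was tested on simulated counts.

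The members and the 19 other gene lists were chosen with earlier results of these data known. Named are all members, Seh1l, per list and comparison up to 2 genes with the largest ratios and any that a count needs, and the 3 nearest profiles of 3 members. The text gives part of them. Transcript starts came from GENCODE on the same build. Results were recomputed with a pseudocount of 0.1 or 5 CPM, without a minimum or with one of 5 CPM, with library totals, size factors of DESeq2 1.42.0, TMM without cell cycle and histone genes, deposited FPKM, and counts over the longest transcript. The FPKM setting added 1 FPKM to each level in place of 1 CPM. No test across conditions was run.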

Additional observations from a re-analysis of the deposited data

Results flagged for a closer look

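Tet2 had ratios of iKO to Ctrl cells with opposite signs on the 2 days and counting intervals that left out 1 on each day. Eed also changed sign, with an interval at day 3 that included 1. Tet2 was at 51.2 CPM in D3_iKO and 74.3 CPM in D3_Ctrl cells, and at 27.9 CPM in D0_iKO and 24.3 CPM in D0_Ctrl cells. The log2 ratio of Tet2 was -0.53 at day 3 and 0.19 at day 0, a difference of -0.7221. Over all alternative settings this difference lay between -0.93 and -0.67. With 1 library per group the difference was not tested.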

How the results depend on the processing

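No paired analysis was possible because each group held 1 library and the labels give no replicate numbers, and for the same reason no library could be left out. Over 8 alternative settings, 358 of 395 log2 ratios moved by less than their counting interval and 37 moved by more. The 358 include 50 ratios taken without a minimum and 45 taken with a minimum of 5 CPM. A minimum selects genes and leaves the ratio of each gene as it is, so these ratios could not move and say nothing on stability. Of 50 ratios 4 changed sign under some setting (Dnmt3a between genotypes at day 0 and between days in iKO cells, and the difference between days for Dnmt1 and Dnmt3b), and none of the 10 past 2-fold did. The number of members higher at day 3 in iKO cells was 0 with a pseudocount of 5 CPM, 0 with library totals and 0 with deposited FPKM, against 1 (Ezh1, at 1.01). In Ctrl cells it was 1 with a pseudocount of 5 CPM, against 2. With library totals 1 member, Ezh2, was at least 2-fold lower in iKO cells at day 3, and over all settings its log2 ratio lay between -1.0006 and -0.83. Dnmt1 made up 40.6% (D3_iKO), 48.0% (D3_Ctrl), 74.8% (D0_iKO) and 83.1% (D0_Ctrl) of its family with counts over the longest transcript. As a share of summed FPKM, a setting chosen after seeing the data, NM_153743.4 made up 49.1% of Dnmt3a in D0_iKO and 46.6% in D0_Ctrl cells. Library totals moved the median log2 ratio of all genes by over 0.1, to -0.13 between days in iKO cells (-0.01 with TMM) and 0.06 between genotypes at day 0 (-0.06 with TMM), and these scalings change the background. The FPKM setting also differs in its pseudocount, 1 FPKM instead of 1 CPM, so its counts of genes do not show the scaling alone. Between genotypes at day 3 there were 813 genes higher and 618 lower with TMM, 683 and 699 with library totals, and 477 and 481 with FPKM, while between days in iKO cells there were 1459 and 1485 with TMM, 1201 and 1821 with library totals, and 931 and 1473 with FPKM. For the difference between days there were 482 above and 714 below with TMM, 298 and 960 with library totals, and 219 and 617 with FPKM. A pseudocount of 5 CPM gave 111 higher and 13 lower between genotypes at day 0, and 0.1 CPM gave 706 and 80, against 347 and 43 with 1 CPM. Library totals gave 469 and 25 there, and FPKM 252 and 19. With a pseudocount of 5 CPM there were 430 higher and 358 lower between genotypes at day 3, 1213 and 1498 between days in Ctrl cells (1894 and 1955 with 1 CPM), and 230 and 367 for the difference between days. Dnmt3b falls under a minimum of 5 CPM and has no value there. Depth limits Dnmt3b, Epop and the Hox genes.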

Other observations

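Among genes that supply or follow the Tet reaction, only Idh2 passed 2-fold in log2(CPM + 1) between the genotypes at day 3. Of 11 genes for 2-oxoglutarate and S-adenosylmethionine supply, 9 had a log2 ratio of iKO to Ctrl above 0 at day 3 (median 0.56), against 3 of 11 at day 0 (median -0.04). Idh2, the mitochondrial isocitrate dehydrogenase that makes 2-oxoglutarate, was at 234 CPM in D3_iKO, 99.3 in D3_Ctrl, 184 in D0_iKO and 231 in D0_Ctrl cells, and D3_Ctrl cells were the low library. It was 2.36-fold higher in iKO cells at day 3 (2.24 to 2.49). Mat2a, which makes S-adenosylmethionine, the methyl donor of Dnmt and Ezh enzymes, was at 852 CPM in D3_iKO and 576 CPM in D3_Ctrl cells, 1.48-fold higher (1.44 to 1.51).

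Of 11 measured base excision genes none passed 2-fold in log2(CPM + 1) between the genotypes. Gadd45b came nearest, at 6.47 CPM in D3_iKO and 2.74 CPM in D3_Ctrl cells. Its log2 ratio at day 3 was 0.999, while its ratio of CPM was above 2-fold. Neil3, a glycosylase of dividing cells, was 10.7-fold lower at day 3 in iKO cells (7.80 to 15.0) and 21.2-fold lower in Ctrl cells (15.1 to 30.7), and Apex1 and Xrcc1 were lower in both genotypes as well. Of 12 listed germline genes that DNA methylation is known to silence, 9 were analysed here and 2 reached 1 CPM. Sycp3, a synaptonemal complex gene, was at 3.18 CPM in D3_iKO and 3.18 CPM in D3_Ctrl cells, against 0.918 CPM in D0_iKO and 0.492 CPM in D0_Ctrl cells, 3.47-fold higher at day 3 in iKO cells (2.06 to 6.07) and 6.47-fold higher in Ctrl cells (3.30 to 14.1). Sycp1, of the same complex, was at 2.39 CPM in D3_iKO, 0.796 in D3_Ctrl, 0.964 in D0_iKO and 0.787 in D0_Ctrl cells, so that the D3_iKO library was the high one. It rests on 45 counts in D3_iKO and 16 in D3_Ctrl cells. Its ratio of CPM at day 3 was above 2-fold, and only its log2 ratio of CPM + 1, at 0.91, fell short of the threshold.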
